A study of Mus musculus with 8 samples.

Results

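The cell cycle engine and checkpoint genes considered here are cyclins, cyclin-dependent kinases, kinase inhibitors, pocket proteins, E2F factors, Mcm helicase subunits, Mdm2, Cdc25 phosphatases and mitotic kinases. They were taken from a list of 42 gene symbols, and 39 had a probe set that carried that symbol alone, out of 19935 genes measured in this way. Ccnb1, Trp53 and Cdkn1a were not analysed here, the last because its probe set carries 2 symbols. Expression was measured in R1 mouse embryonic stem cells kept in pluripotent conditions, 48 hours after transfection with siRNA. The groups were 3 samples with a control siRNA, 3 with siRNA 1 and 2 with siRNA 2, each on its own Affymetrix array. siRNA 1 is CnAb1 (1) in the labels and siRNA 2 is CnAb1 (2), and both were directed against CnAb1, a splice variant of the calcineurin catalytic subunit gene Ppp3cb. All 8 samples shared the cell line, the culture conditions and the transfection. Nothing in the labels says whether samples of a group were separate cultures, so the p-values reflect the spread among these samples alone, and that spread may be technical.

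Progress through the cell cycle is driven by cyclins, which activate cyclin-dependent kinases. In the G1 phase these kinases phosphorylate the pocket proteins, which releases E2F factors to transcribe genes for DNA replication, while later waves of kinase activity drive mitosis. Mouse embryonic stem cells are known for a short G1 phase, kinase activity that is high through most of the cycle, and pocket proteins that are largely phosphorylated. The arrays measured RNA of whole cultures, in which fewer cells in a phase and less RNA per cell cannot be told apart, and they measured neither phosphorylation nor protein.

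Promoters of cell cycle genes carry short sequences through which E2F factors and the DREAM and MuvB complexes act, and 6 members with clear examples are shown here from 140 bases before to 20 bases after the annotated start. The sequences are from RefSeq on build GRCm38.p6 and are read 5′ to 3′ on the gene's strand. Ccnb2 is at chr9:70421535-70421694 on the minus strand, Cdk1 at chr10:69352893-69353052 (minus), Cdc20 at chr4:118437324-118437483 (minus), Rbl1 at chr2:157204515-157204674 (minus), Mcm6 at chr1:128359686-128359845 (minus) and Cdc25a at chr9:109875439-109875598 (plus). Capitals mark the E2F motif (TTTCCCGC, TTTCGCGC, TTTGCCGC or TTTGGCGC), the cell cycle genes homology region or CHR (TTTGAA or TTCGAA) and the CCAAT box (CCAAT), each on either strand.
Ccnb2: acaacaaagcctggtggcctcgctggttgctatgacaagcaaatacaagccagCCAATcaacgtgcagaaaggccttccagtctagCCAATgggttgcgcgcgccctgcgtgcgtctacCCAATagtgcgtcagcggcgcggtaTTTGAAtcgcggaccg
Cdk1: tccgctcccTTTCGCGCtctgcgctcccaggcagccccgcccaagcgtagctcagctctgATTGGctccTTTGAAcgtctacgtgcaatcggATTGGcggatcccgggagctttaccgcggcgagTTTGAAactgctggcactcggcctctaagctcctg
Cdc20: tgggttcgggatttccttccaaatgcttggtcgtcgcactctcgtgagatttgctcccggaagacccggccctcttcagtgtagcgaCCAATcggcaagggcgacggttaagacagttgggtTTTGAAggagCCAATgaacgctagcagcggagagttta
Rbl1: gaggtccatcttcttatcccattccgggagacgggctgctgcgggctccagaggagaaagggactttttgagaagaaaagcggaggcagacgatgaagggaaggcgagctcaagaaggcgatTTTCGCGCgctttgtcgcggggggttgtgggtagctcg
Mcm6: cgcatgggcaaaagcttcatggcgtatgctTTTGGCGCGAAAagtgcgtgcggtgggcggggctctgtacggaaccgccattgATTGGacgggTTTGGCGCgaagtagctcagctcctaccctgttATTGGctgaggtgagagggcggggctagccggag
Cdc25a: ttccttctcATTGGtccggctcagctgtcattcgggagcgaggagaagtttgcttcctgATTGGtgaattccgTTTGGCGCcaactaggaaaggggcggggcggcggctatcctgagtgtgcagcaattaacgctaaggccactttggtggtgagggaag

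Ccnb2, Cdk1 and Cdc20, whose products act in mitosis, hold a CHR and CCAAT boxes in these windows, and Cdk1 also holds an E2F motif at position -131 relative to its start. Rbl1, Mcm6 and Cdc25a, whose products act in G1 and S phase, hold an E2F motif, and in Mcm6 a pair of E2F matches on opposite strands overlap. Mcm6 and Cdc25a hold CCAAT boxes as well. Over the full window of 300 bases, from 250 before to 50 after the start, 32 of the 42 listed genes had a RefSeq promoter entry. An E2F motif lay in 11 of the 32 (34.4%), against 2.32% of all 27025 promoters of that length. A CHR lay in 12 (37.5%, against 19.4% of all promoters) and a CCAAT box in 20 (62.5%, against 37.9%). The CHR was not confined to mitotic genes, since Mcm2 and Mcm7 were among those with a match. These matches are descriptions of sequence and not measured binding sites. Among the measured members, the median difference between the siRNA average and control was -0.018 on the log2 scale for the 11 with an E2F motif and -0.017 for the 18 without.

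The values are deposited log2 expression values made by robust multi-array averaging (RMA), which pulls the distributions of arrays together. Array medians lay between 8.12 and 8.20, lower quartiles between 6.81 and 6.98, and correlations between arrays between 0.995 and 0.999. All 10 stem cell markers examined read above the array median on all 8 arrays, and their mean log2 level lay between 12.61 and 12.70 on every array. Of 10 fibroblast markers, 7 also read above the median on all arrays. The mean log2 level of the fibroblast list was 8.64 to 8.75 on control, 8.73 to 8.90 on siRNA 1 and 8.74 to 8.76 on siRNA 2 arrays, and the median difference of its genes for the siRNA average was 0.06. Of these 10 genes, 4 had an unadjusted p under 0.05, against 6.31% of all genes, with adjusted p 0.769 for each in limma. Acta2 differed by 0.22 (SE 0.09), Col1a2 by 0.17 (SE 0.06), Col1a1 by 0.14 (SE 0.05) and Twist1 by -0.14 (SE 0.05), and for Acta2 and Col1a2 this was larger in size than for any cell cycle member. For 7 macrophage and blood markers the mean log2 level was 7.67 to 7.91, 7.77 to 8.05 and 7.81 to 7.86. The part of such cells in the results was not tested. For Ppp3cb, the gene targeted, the probe set gave 10.63 ± 0.07 in the 3 controls, 10.76 ± 0.29 under siRNA 1 (3 samples) and 11.11 ± 0.07 under siRNA 2 (2 samples), as mean ± SD. For the siRNA average it read higher than control by 0.31 (SE 0.11, unadjusted p 0.0196, adjusted p 0.769 in limma). The probe set measures the gene as a whole and not the CnAb1 variant, so it does not check the knockdown.

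The arrays differed within a group for these genes. siRNA 1 replicate 2 read lower than siRNA 1 replicate 1 for 30 of the 39 members (76.9%), against 52.6% of all genes tested, with a median difference of -0.073 for the members and -0.013 for all genes. These arrays also had the highest and the lowest lower quartile of the 8. Relative to each gene's mean over the 8 arrays, siRNA 1 replicate 2 stood at a median of -0.05 over the members, and the other 7 arrays stood between -0.014 and 0.026. The spread was widest for the Cdc25 phosphatases and the pocket proteins, as the map of role groups shows.

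**Figure D1:**
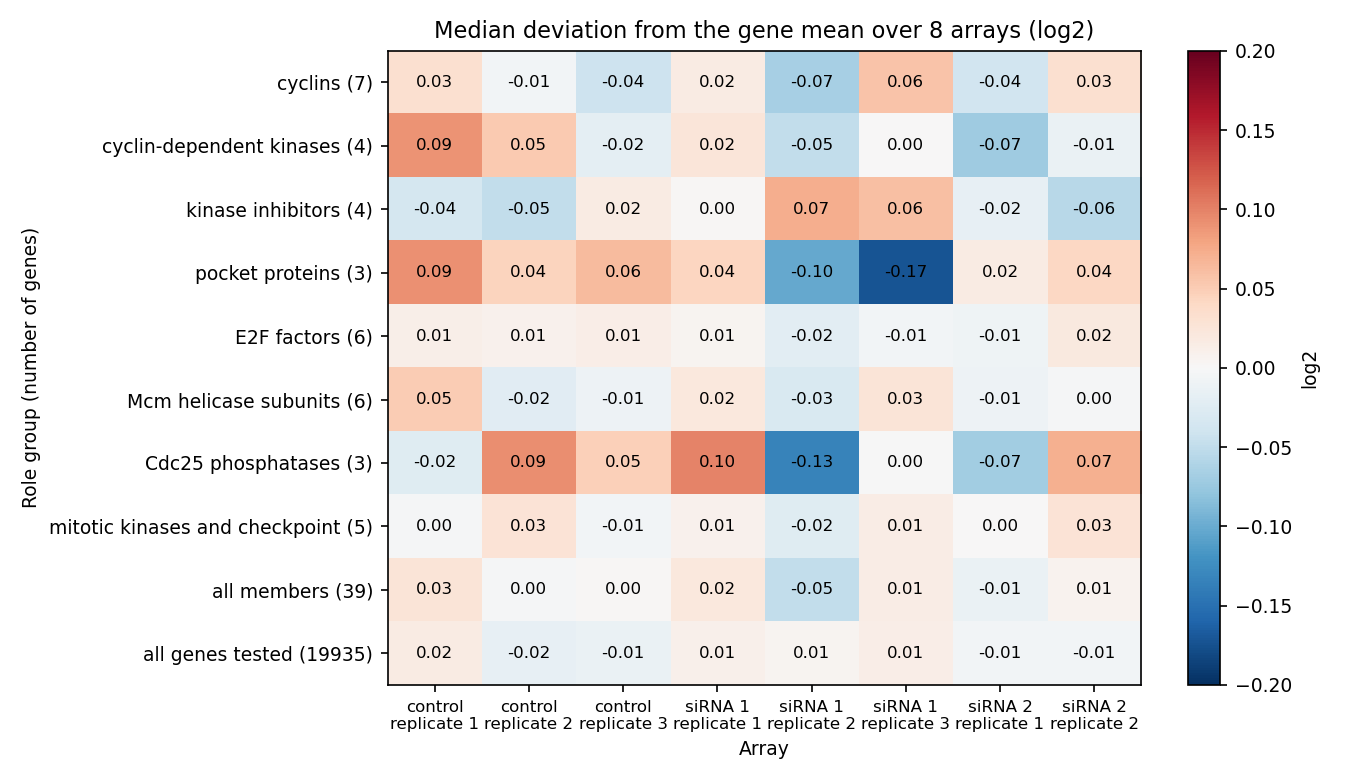
Median deviation of each role group (rows, number of genes in brackets) on each of the 8 arrays (columns), in log2 relative to each gene's mean over the 8 arrays, with red above and blue below that mean. Pocket proteins read lowest on siRNA 1 replicates 2 and 3 (-0.10 and -0.17), and the row for all 39 members is lowest on siRNA 1 replicate 2 (-0.05).

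The comparison of both siRNAs with control asks whether the cell cycle machinery was expressed differently after transfection with siRNA against CnAb1. No member passed the test for the average of the siRNAs against control (limma, Benjamini-Hochberg over 19935 genes, smallest adjusted p among members 0.769), and 0% of all genes passed. At an unadjusted p under 0.05 there was 1 member, Cdk6, of 39 (2.56%), against 6.31% of all genes tested. Of the 39 members, 15 read higher and 24 lower than control, with a median difference of -0.018, against 0.011 over all genes, of which 11176 read higher and 8759 lower. That split moved with the scaling: 19 members read higher and 20 lower when quantile normalization was repeated, and 12 higher and 27 lower when arrays were centred on their medians. The largest difference of a member was 1.11-fold, and the 95% intervals of all 39 members stayed within 1.22-fold of control. For 24 members the difference was smaller than the SD within groups, which had a median of 0.063 over the members on the log2 scale.

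**Figure D2:**
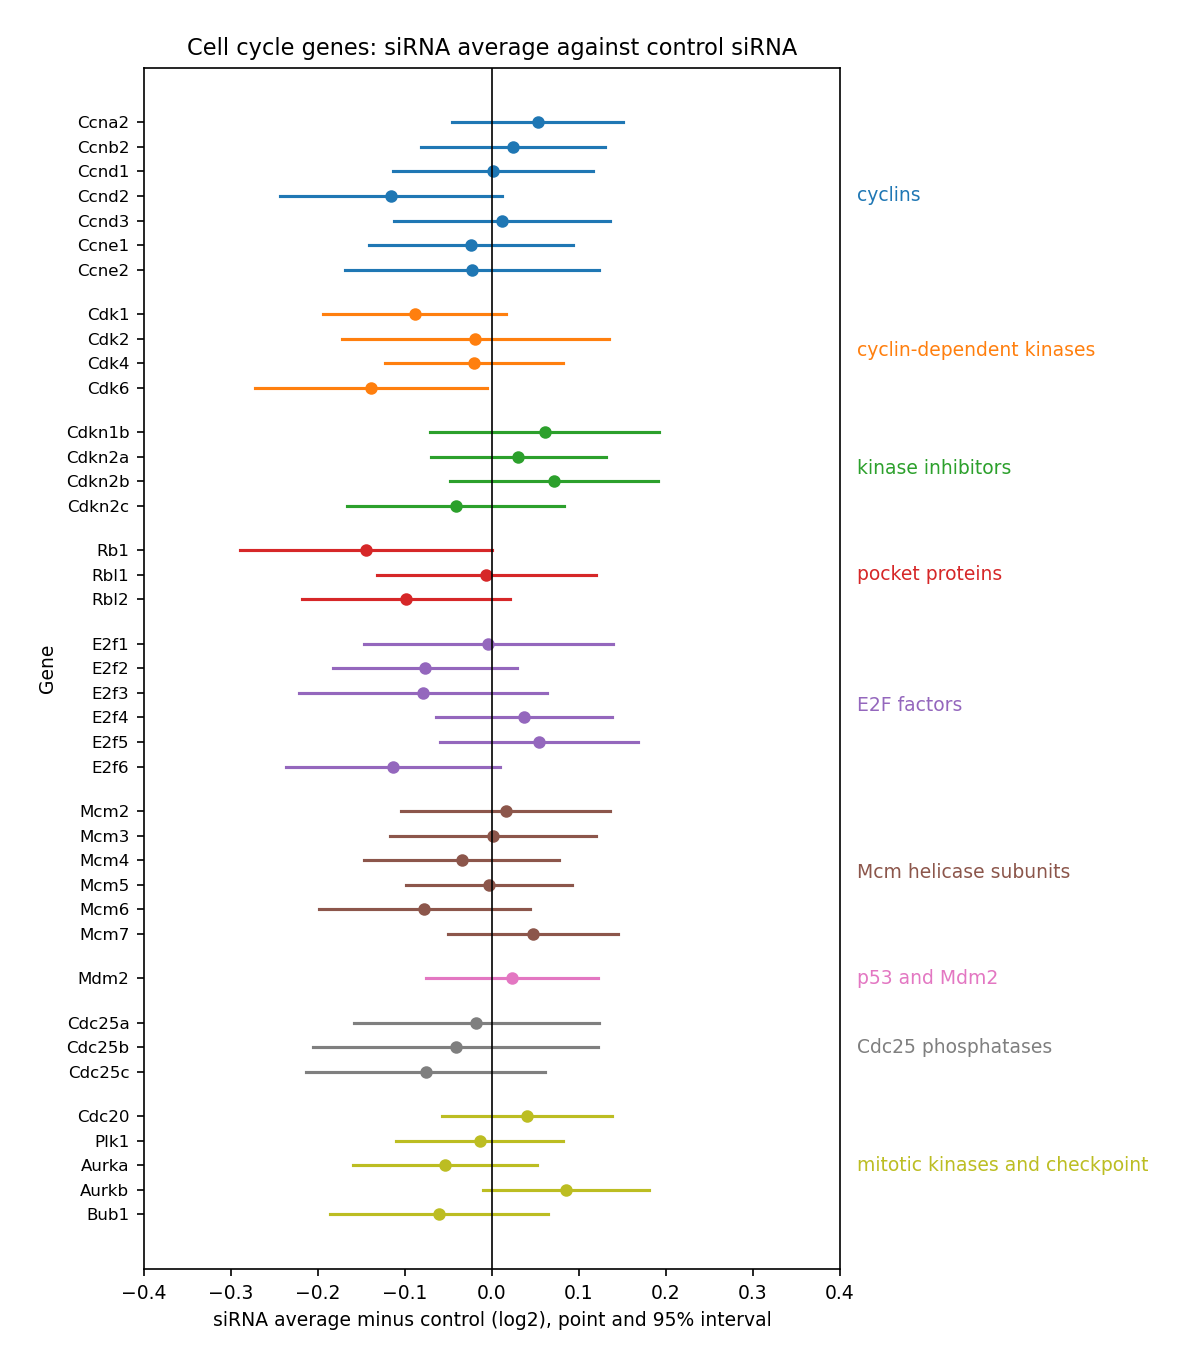
Difference of the siRNA average from control siRNA for each of the 39 measured members (log2, point) with its 95% interval from limma (line), grouped and coloured by role. The points lie between -0.14 (Rb1) and 0.09 (Aurkb), and the interval of Cdk6 alone excludes 0, with no adjustment for the number of genes.

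Of the cyclins, 7 were measured, 4 reading higher and 3 lower than control. The split was 2 higher and 5 lower after median centring, and 5 higher and 2 lower after repeated quantile normalization. This group held the D-type cyclins, which activate Cdk4 and Cdk6, the E-type cyclins, which activate Cdk2 at the start of S phase, cyclin A2, which acts in S and G2 phase, and cyclin B2, which acts in mitosis. Ccnd2 read 10.43, 10.30 and 10.41 with control siRNA, 10.32, 10.16 and 10.21 with siRNA 1, and 10.26 and 10.34 with siRNA 2. The lowest control thus lay below 1 array of each siRNA. Its difference was -0.12 (SE 0.06, adjusted p 0.769 in limma). Ccna2 had the highest difference of the cyclins, at 0.05 (SE 0.04), and read 13.19 ± 0.04 (SD, n = 3) with control siRNA. In controls the others read 12.60 ± 0.05 for Ccnd1, 12.49 ± 0.04 for Ccnd3, 13.16 ± 0.06 for Ccne1, 9.54 ± 0.07 for Ccne2 and 12.91 ± 0.03 for Ccnb2. Their differences lay between -0.02 and 0.02, so Ccnd2 had the largest difference in size of the 7, though it did not pass the test.

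All 4 cyclin-dependent kinases read lower on average, by amounts that did not pass the test. For Cdk2, which acts with cyclins E and A, the value was -0.02 (SE 0.07). It ranged from -0.055 to 0.03 when single arrays were left out. Cdk6, a partner of D-type cyclins, read 11.50, 11.37 and 11.31 with control siRNA, 11.33, 11.25 and 11.19 with siRNA 1, and 11.21 and 11.28 with siRNA 2. The lowest control array and the highest siRNA 1 array overlapped. Its difference was -0.14 (SE 0.06, unadjusted p 0.043, adjusted p 0.769 in limma). Without control replicate 1, the highest control array, the difference was -0.08.

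Cdk1, the kinase that drives entry into mitosis, read 12.50, 12.51 and 12.42 with control siRNA, 12.45, 12.43 and 12.43 with siRNA 1, and 12.38 and 12.30 with siRNA 2. Both siRNA 2 arrays lay below all controls, while all siRNA 1 arrays lay between the lowest and the highest control. The difference of the average was -0.09 (SE 0.05, adjusted p 0.769 in limma). Cdk4, the other partner of D-type cyclins, read 13.87 ± 0.04 (SD, n = 3) in controls, and its difference was -0.02 (SE 0.05). Cdk2 read 11.43 ± 0.09 in controls.

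The kinase inhibitors restrain this machinery, Cdkn1b (p27) mainly on Cdk2 complexes and the Cdkn2 family on Cdk4 and Cdk6. Of the 4 measured, 3 read higher and 1 lower than control. Cdkn2b (p15) had the highest difference, 0.07 (SE 0.05), and read 8.54, 8.50 and 8.65 with control siRNA, 8.62, 8.72 and 8.74 with siRNA 1, and 8.60 and 8.56 with siRNA 2. Arrays of both siRNAs overlapped with the controls, and the difference was 0.04 without control replicate 2 and 0.11 without control replicate 3. Cdkn2c (p18) had the lowest, -0.04 (SE 0.06), which turned to 0.006 without siRNA 2 replicate 2. Cdkn2c was also the only member to read below the lower quartile of an array, on 1 array, so its readings are near the low end of the scale. Both Cdkn2c and Cdkn2a read below the array median on all arrays. Cdkn2a, whose locus encodes p16 and p19ARF that the probe set does not separate, read 8.08 ± 0.01 (SD, n = 3) in controls. Cdkn1b read 10.92 ± 0.04, with a difference of 0.06 (SE 0.06), while its dimmer second probe set gave -0.10 (SE 0.12), so its direction rests on the probe set.

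All 3 pocket proteins, which hold E2F factors in check, read lower on average, none past the test. Rbl1 (p107) had a difference of -0.01 (SE 0.06), which became 0.001 when quantile normalization was repeated. It ranged from -0.042 to 0.018 when single arrays were left out. Rb1, the retinoblastoma protein gene, read 10.15 on each of the 3 control arrays, 10.13, 9.93 and 9.87 with siRNA 1, and 9.97 and 10.10 with siRNA 2. All 5 siRNA arrays lay below all controls. The controls lay within an SD of 0.0027, while the SD was 0.13 with siRNA 1, so the difference of -0.14 (SE 0.06, unadjusted p 0.0502, adjusted p 0.769 in limma) was set against a wider spread among treated samples. Rbl2 (p130), which works with E2F4 in the DREAM complex, read 8.60, 8.55 and 8.57 with control siRNA, 8.53, 8.44 and 8.33 with siRNA 1, and 8.52 and 8.51 with siRNA 2. All 5 siRNA arrays again lay below the controls, and the difference was -0.10 (SE 0.05, adjusted p 0.769). Rbl1 read 8.81, 8.78 and 8.69, then 8.79, 8.65 and 8.63, and then 8.78 and 8.85 in the same order of groups. It was low on siRNA 1 replicates 2 and 3, and siRNA 2 replicate 2 was its highest array.

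Of the 6 E2F factors, 2 read higher and 4 lower than control, or 3 and 3 after repeated quantile normalization. E2f6, a repressor that does not bind pocket proteins, read 10.05, 9.89 and 9.89 with control siRNA, 9.87, 9.84 and 9.77 with siRNA 1, and 9.84 and 9.84 with siRNA 2. All 5 siRNA arrays lay below the controls, though the difference of -0.11 (SE 0.05, adjusted p 0.769 in limma) was -0.06 without control replicate 1, which stood above the other controls. E2f5, which like E2f4 is a repressor that binds pocket proteins, had the highest difference, 0.05 (SE 0.05), which was 0.01 without control replicate 2. The activators read 10.75 ± 0.07 (E2f1), 8.54 ± 0.02 (E2f2) and 10.88 ± 0.05 (E2f3) in controls (SD, n = 3), with differences of -0.004 (SE 0.06), -0.08 (SE 0.05) and -0.08 (SE 0.06). A second E2f3 probe set gave -0.10 (SE 0.08). In controls E2f4 read 12.43 ± 0.02 and E2f5 10.71 ± 0.07.

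**Figure D3:**
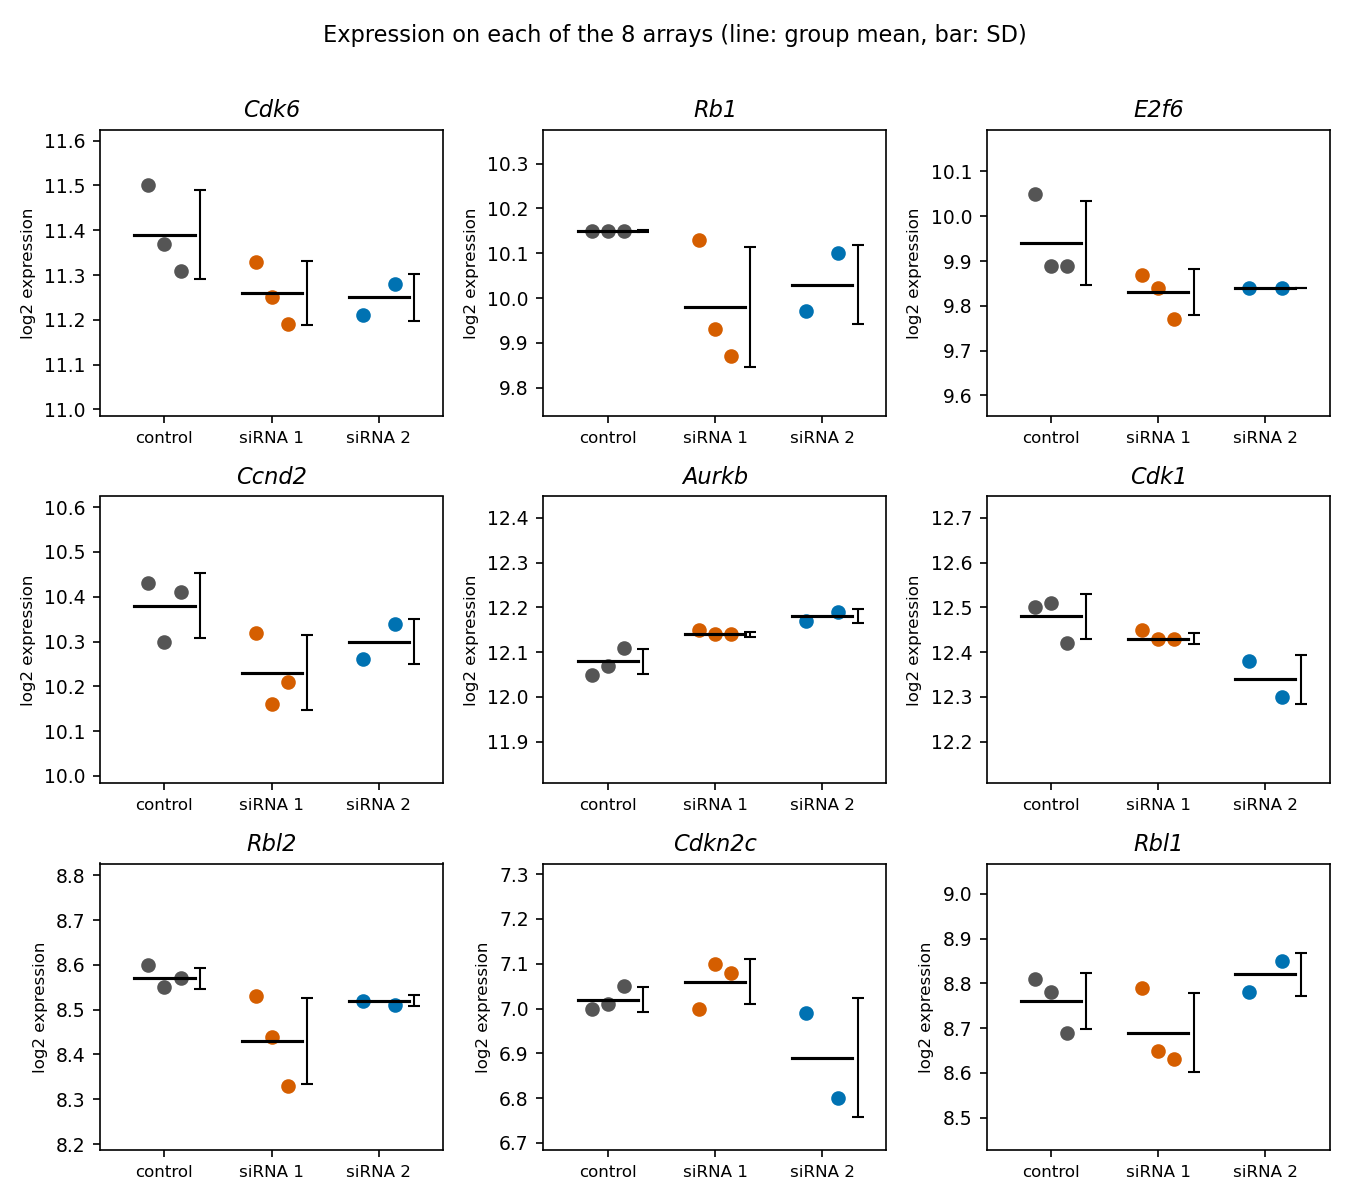
Log2 expression of 9 members on each of the 8 arrays, with control siRNA in grey (n = 3), siRNA 1 in orange (n = 3) and siRNA 2 in blue (n = 2), the group mean as a line and its SD as a bar. The vertical axes have the same span and different offsets. The siRNA arrays of Rb1, Rbl2 and E2f6 lie below all controls and those of Aurkb above, while the other panels overlap.

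The Mcm proteins form the ring-shaped helicase that is loaded at replication origins in G1 phase, and 3 of the 6 subunits read higher and 3 lower than control, or 2 higher and 4 lower after median centring and 4 higher and 2 lower after repeated quantile normalization. Mcm7 read 13.14, 13.12 and 13.11 with control siRNA, 13.14, 13.16 and 13.18 with siRNA 1, and 13.21 and 13.14 with siRNA 2. All 5 siRNA arrays lay above the controls, by little in some cases, and the difference was 0.05 (SE 0.04). Mcm6 had the lowest difference, -0.08 (SE 0.05), from a control level of 12.22 ± 0.08 (SD, n = 3), and it was -0.03 when control replicate 1 was left out and -0.05 when siRNA 2 replicate 2 was. The other subunits read 12.93 ± 0.07 (Mcm2), 12.15 ± 0.04 (Mcm3), 12.48 ± 0.04 (Mcm4) and 13.08 ± 0.02 (Mcm5) in controls, with differences between -0.03 and 0.02.

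Mdm2, the ubiquitin ligase that holds p53 low, read 12.25 ± 0.04 (SD, n = 3) in controls and differed by 0.02 (SE 0.04), with a range of 0.008 to 0.042 when single arrays were left out. The Cdc25 phosphatases, which remove inhibitory phosphates from cyclin-dependent kinases, read 12.16 ± 0.05 (Cdc25a), 9.52 ± 0.07 (Cdc25b) and 9.06 ± 0.06 (Cdc25c) in controls. Their differences were -0.02 (SE 0.06), -0.04 (SE 0.07) and -0.08 (SE 0.06). When single arrays were left out, Cdc25a ranged from -0.063 to 0.027, so its sign was not stable, and Cdc25c from -0.11 to -0.04. Cdc25b had the widest spread within groups of all members, an SD of 0.11.

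Among the mitotic kinases and checkpoint genes, 2 read higher and 3 lower than control. Aurkb, the kinase of the chromosomal passenger complex, read 12.05, 12.07 and 12.11 with control siRNA, 12.15, 12.14 and 12.14 with siRNA 1, and 12.17 and 12.19 with siRNA 2. All 5 siRNA arrays lay above all controls. The difference was 0.09 (SE 0.04, unadjusted p 0.075, adjusted p 0.769 in limma), and leaving out any array kept it between 0.07 and 0.10. Bub1, a spindle checkpoint kinase, had the lowest difference, -0.06 (SE 0.06), from 12.60 ± 0.03 (SD, n = 3) in controls, and it was -0.03 without siRNA 1 replicate 3. Aurka, the spindle pole kinase, read 12.11 ± 0.04, Plk1, which acts in mitotic entry and exit, 12.88 ± 0.02, and Cdc20, an activator of the anaphase-promoting complex, 12.49 ± 0.03. Over all genes tested, 2.49% had all 5 siRNA arrays above all controls and 2.25% had all 5 below. Among the 39 members there were 2 above (Aurkb and Mcm7) and 3 below (Rb1, Rbl2 and E2f6).

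For siRNA 1 against control, no member and 0% of all genes passed the test (limma, smallest adjusted p among members 0.87). At an unadjusted p under 0.05 there were 3 members of 39 (7.69%), against 5.33% of all genes. These were Rb1, at -0.17 (SE 0.07, p 0.0368), Ccnd2, at -0.15 (SE 0.06, p 0.0379), and Rbl2, at -0.14 (SE 0.06, p 0.0407), each with an adjusted p of 0.87 in limma. Their readings were lowest on siRNA 1 replicates 2 and 3, and siRNA 1 replicate 1 read nearest the controls for each. With weights estimated for each array, 3 members of 39 (7.69%) passed, against 7.2% of all genes in that fit, a share near the background. They were Rb1 at -0.25 (adjusted p 0.0272), Rbl2 at -0.21 (adjusted p 0.0312) and Bub1, named after its value was seen, at -0.18 (adjusted p 0.0461) in limma. In that fit siRNA 1 replicate 3 had a weight of 3.56, whereas replicate 1 had 0.31 and replicate 2 had 0.41, so 1 array largely set the siRNA 1 mean. In this comparison 17 members read higher and 22 lower, while over all genes 11691 read higher and 8244 lower. The members split into 11 higher and 28 lower after median centring, and 18 higher and 21 lower after repeated quantile normalization.

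For siRNA 2 against control, no member and 0% of all genes passed (limma, smallest adjusted p among members 0.812). The member with an unadjusted p under 0.05 was Cdk1 (2.56% of members, against 6.07% of all genes), at -0.14 (SE 0.06, p 0.0424). Cdk6 followed at -0.14 (SE 0.07) and Aurkb at 0.10 (SE 0.05), both with an adjusted p of 0.818. The comparisons of each siRNA share the control samples, so their values for a gene are not independent. Side by side, Cdk1 differed from control by -0.04 with siRNA 1 and -0.14 with siRNA 2, Rb1 by -0.17 and -0.12, Ccnd2 by -0.15 and -0.08, Rbl2 by -0.14 and -0.06, Cdk6 by -0.13 and -0.14, and Aurkb by 0.07 and 0.10. Of the members, 15 read higher and 24 lower with siRNA 2, or 19 higher and 20 lower after repeated quantile normalization, while over all genes 10545 read higher and 9390 lower.

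The direct comparison of siRNA 2 with siRNA 1, which have 1 target, tested whether these differences were unequal. No member and 0% of all genes passed (limma, adjusted p of 1.0 for every member). The member with an unadjusted p under 0.05 was Cdkn2c (2.56% of members, against 4.48% of all genes), at -0.17 (SE 0.07, p 0.034). It read 6.996, 7.010 and 7.051 with control siRNA, 7.005, 7.098 and 7.085 with siRNA 1, and 6.986 and 6.798 with siRNA 2. The low value came from siRNA 2 replicate 2, without which the difference was -0.08. Mdm2 was higher with siRNA 2 by 0.11 (SE 0.05) and Rbl1 by 0.13 (SE 0.07). Of the members, 22 read higher and 17 lower with siRNA 2 than with siRNA 1, while over all genes 8862 read higher and 11073 lower. The members split into 26 higher and 13 lower after median centring, and 23 higher and 16 lower after repeated quantile normalization.

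Related genes were compared within each array, so that a shift equal for all genes of an array cancels. A difference between arrays that varies with the level of a gene does not cancel. For 16 of 18 listed paralog pairs both genes were measured. The difference between the paralogs was compared between the 5 siRNA and the 3 control arrays by a two-sided exact permutation test, in which the 56 possible splits allow a smallest p of 0.0357. A pair could pass adjustment over the 16 pairs only if most of them reached that smallest p. Not passing therefore cannot decide about a single pair. In 5 pairs the test gave that smallest p, with 0.114 after adjustment, and no pair passed. In these pairs the mean log2 difference on siRNA arrays minus that on control arrays was 0.13 for Ccnd1 minus Ccnd2, 0.12 for Cdk4 minus Cdk6, 0.11 for Cdkn2b minus Cdkn2c, -0.13 for Rb1 minus Rbl1 and -0.14 for Aurka minus Aurkb. For Aurka minus Aurkb the 5 siRNA arrays lay at -0.12, -0.18 and -0.09 (siRNA 1) and -0.13 and -0.18 (siRNA 2) relative to the control mean, and the controls at 0.02, 0.05 and -0.07. For Rb1 minus Rbl1 the siRNA arrays lay at -0.05, -0.11, -0.15, -0.20 and -0.15, and the controls at -0.05, -0.02 and 0.07. The lowest control thus came close to siRNA 1 replicate 1. When quantile normalization was repeated, Aurka minus Aurkb alone of the 5 kept the smallest p, and the exact permutation p was 0.0714 for Rb1 minus Rbl1 and 0.107 for the other 3. The same quantity for Ccnd2 minus Ccnd3 was -0.13 (exact permutation p 0.0714, adjusted 0.19), and those for Ccnd1 minus Ccnd3 and Ccne1 minus Ccne2 were -0.01 or smaller in size (exact permutation p 0.821 and 0.964).

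**Figure D4:**
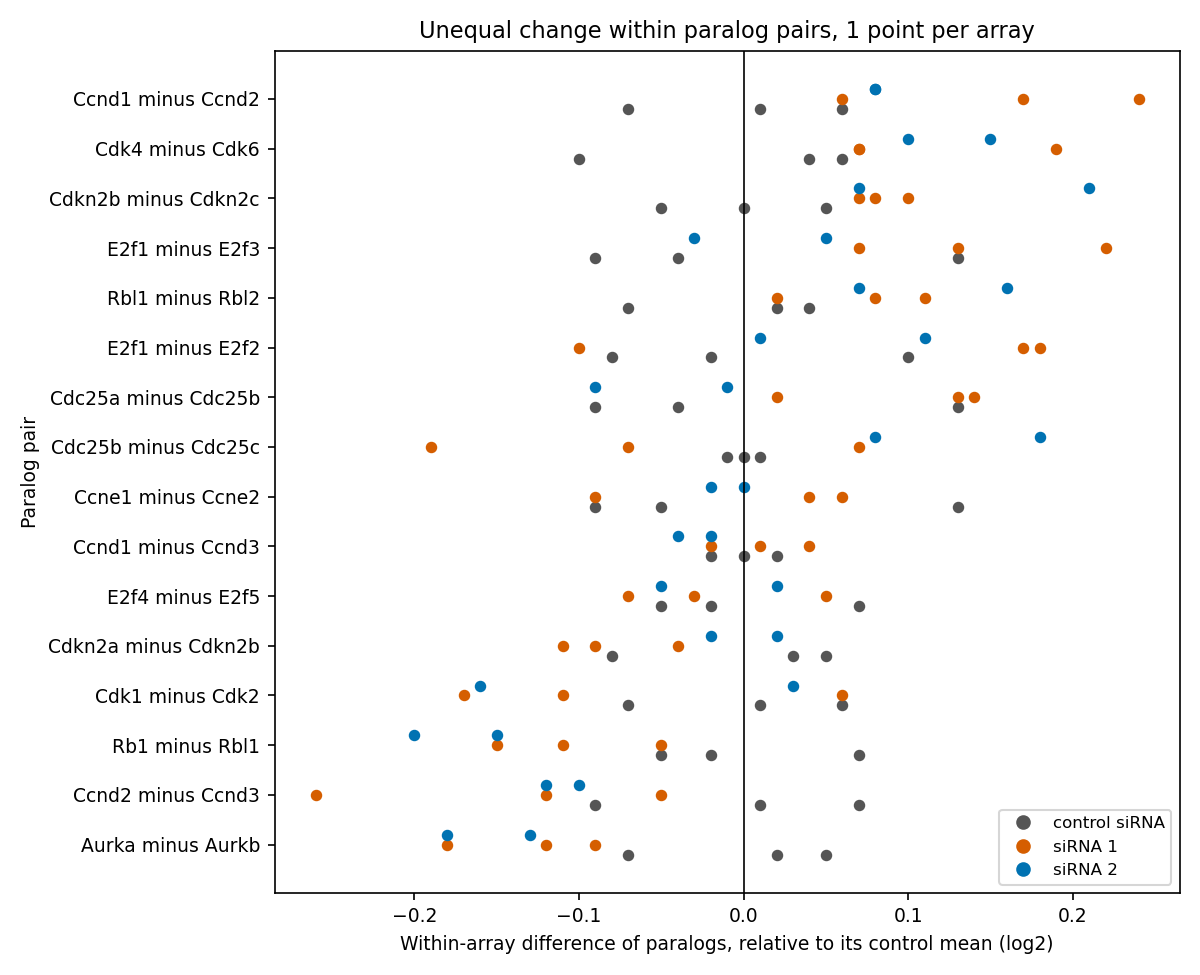
Within-array difference between paralogs for 16 pairs (log2, relative to the mean of the 3 control arrays), with 1 point per array, control siRNA in grey, siRNA 1 in orange and siRNA 2 in blue. The siRNA arrays of Aurka minus Aurkb lie between -0.18 and -0.09, all below the controls, and those of Cdkn2b minus Cdkn2c between 0.07 and 0.21, all above the controls.

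Other genes of the pathway were read in 6 lists, and no gene of any list passed the test for the siRNA average (limma, 0 of 115 genes). At an unadjusted p under 0.05 there were 8 of the 115 (6.96%), against 6.31% of all genes, which is near the background. The 39 members had a median of -0.018 and all genes one of 0.011. Of 21 origin licensing and replication genes, 18 read lower, with a median of -0.038, and Orc4, a subunit of the origin recognition complex, differed by -0.19 (SE 0.06). Of 20 genes of the anaphase-promoting complex and the SCF ubiquitin ligase, 18 read lower, with a median of -0.029, although Anapc10, a subunit of the former, read higher by 0.14 (SE 0.06). Of 19 spindle checkpoint and mitosis genes, 14 read lower, with a median of -0.042, and Top2a, the topoisomerase that untangles chromosomes, differed by -0.08 (SE 0.05). After repeated quantile normalization the counts reading lower were 15 of 21, 14 of 20 and 11 of 19, and after median centring they were 18, 18 and 16. On siRNA 1 replicate 2 these lists also read lower than on siRNA 1 replicate 1. This held for 85.7%, 75% and 89.5% of their genes, against 52.6% of all genes. Relative to gene means, their medians were 0.067, 0.052 and 0.027 on replicate 1 and -0.046, -0.068 and -0.042 on replicate 2. The counts reading lower than control were 15, 13 and 12 with siRNA 1 and 19, 16 and 16 with siRNA 2. Over all 19935 genes, 8244 and 9390 read lower. The part of single arrays was not tested.

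Of 16 DNA damage checkpoint genes, 14 read lower, with a median of -0.043, and 4 had an unadjusted p under 0.05, against 6.31% of all genes. These were Atr, the kinase that answers stalled replication, at -0.23 (SE 0.07), Rad17, which loads the checkpoint clamp, at -0.18 (SE 0.06), Trp53bp1, a scaffold at DNA breaks, at -0.13 (SE 0.05), and Atm, the kinase that answers DNA breaks, at -0.22 (SE 0.10). Atm was named after its value was seen. Each had an adjusted p of 0.769 in limma. On siRNA 1 replicate 2, 15 of these 16 genes read lower than on siRNA 1 replicate 1, with a median difference of -0.18. Relative to each gene's mean over the 8 arrays, the list's median was 0.097, -0.068 and -0.055 on siRNA 1 replicates 1, 2 and 3. It was -0.071 and 0.025 on the siRNA 2 arrays and 0.04, 0.034 and 0.012 on the controls. Against control, 14 of the 16 genes read lower with siRNA 1 and 14 with siRNA 2, or 12 and 12 after repeated quantile normalization. The part of single arrays was not tested. Of 24 other cyclin, kinase and DREAM complex genes, 13 read lower, or 16 after median centring, with a median of -0.008. Of 15 p53 target genes, 11 read lower, or 8 after repeated quantile normalization, with a median of -0.017. The death receptor gene Eda2r differed by -0.15 (SE 0.04) and the kinase gene Plk2 by -0.14 (SE 0.06), both with an adjusted p of 0.769.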

How the data were processed

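The deposited log2 expression values were made by the authors with RMA, per the submitters' processing notes; its version: not given in the sources used here. Groups and replicate numbers came from the sample titles, where the word differentiation stands against the pluripotent conditions of the growth protocol and series title. Of 28815 probe sets, 21780 had 1 gene symbol in the platform annotation, 1605 several and 5430 none in the table used; 21689 of the named matched a RefSeq gene identifier. Each gene was represented by its single-symbol probe set with the highest mean over 8 arrays (19935 genes, 998 with a choice). limma 3.58.1 in R 4.3.3 fitted 1 mean per group to all 8 arrays, with Benjamini-Hochberg adjustment over all genes and calls at an adjusted p under 0.05. Paralog pairs were tested by exact permutation (scipy 1.17.1). The fit was tested on simulated data with independent noise and shifts larger than any member difference here. That test does not bear on differences as small as those of the members.

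The members and lists were chosen with earlier results of these data known. Differences are named for the 6 members with the smallest unadjusted p for the siRNA average, the 3 smallest in each other comparison and the extremes of each role group, and up to 3 genes of each list; levels are given for all, and other values are given to complete a group. The alternatives were quantile normalization, median centring, array weights, trend and robust estimation, a replicate block and a level filter. Others were the mean of probe sets, a test of all single-symbol probe sets, fits on the compared arrays alone and omission of single arrays. A further 2 were added after seeing the data. The number of arrays limits the precision.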

Additional observations from a re-analysis of the deposited data

How the results depend on the processing

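Under 19 alternatives, 2 of them chosen after seeing the data (a covariate made of the arrays' lower quartiles, and omission of siRNA 1 replicates 1 and 2 together), the count of members passing the test left 0 under 1 of them. With array weights 14 genes were called for the siRNA average and 1436 for siRNA 1 against control, of which 3 were members (Rb1, Rbl2 and Bub1). Trend and robust estimation called 3 genes for siRNA 2 against siRNA 1, no member among them. Why the array weights gave more calls was not tested beyond the weights themselves.

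Of 27 differences of 19 named members, 23 kept their sign under all the alternatives that gave a value. The exceptions, all for the siRNA average, were close to 0. Cdc25a ranged from -0.063 to 0.027 when single arrays were left out and was 0.026 with the quartile covariate. Cdk2 ranged from -0.055 to 0.03 when single arrays were left out, and was 0.011 with array weights and 0.027 with the covariate. Cdkn2c ranged from -0.089 to 0.006. Rbl1 ranged from -0.042 to 0.018, and was 0.001 with repeated quantile normalization and 0.024 with the covariate. The cause of each was not tested.

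The count of members at an unadjusted p under 0.05 turned on single arrays. For the siRNA average it was 1, but 0 on omission of control replicate 1, siRNA 2 replicate 1, or replicate 2 or 3 of siRNA 1, then 2 on omission of siRNA 2 replicate 2 and 4 on omission of siRNA 1 replicate 1. For siRNA 1 it was 3, but 7 when siRNA 1 replicate 1 was omitted, 1 when control replicate 2 was, and 0 when control replicate 1 or either of the remaining siRNA 1 arrays was. With array weights it was 6 for the siRNA average and 11 for siRNA 1. The count over all 19935 genes rose as well, so larger counts were not particular to the members. For the siRNA average and siRNA 1 it was 1257 and 1063 in the main fit. It was 4271 and 5791 with array weights, and 3589 and 4006 without siRNA 1 replicate 1. Omission of siRNA 1 replicates 1 and 2 together leaves 1 array in that group, so no count is given for it. With repeated quantile normalization, which keeps all 8 arrays, 4 of the 5 paralog pairs lost the smallest p (0.0714 to 0.107, exact permutation), and the 5 kept it under median centring and under the mean of probe sets. Leaving out an array also lowers the number of splits of a paralog pair, so those tests could not reach the threshold and say nothing about stability. The level filter removed Cdkn2a and Cdkn2c and left 37 members, and the fit on only the arrays compared gives no siRNA average.

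With the replicate number as a block, 0 genes and 0 members were called in each of the 4 comparisons, and the genes at an unadjusted p under 0.05 were 884 for the siRNA average and 621 for siRNA 1, against 1257 and 1063 without it. Of 7 correlations between the deviations of same-numbered arrays from their group means, 5 were below 0, from -0.547 to 0.219. With groups of 3, 3 and 2 arrays these deviations are not independent. They cannot decide whether same-numbered samples were handled together.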
